A study of Mus musculus with 3 samples.

Results

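KLRG1 and ST2 mark effector and tissue Tregs, and the genes described here are *Klrg1*, *Il1rl1*, *Areg*, *Pparg* and *Nfil3*, 5 of the 25759 genes in the deposited tables. They were taken by name and followed as exon reads and RPKM (reads per kilobase of exon and per 1e6 reads of the library) in each library. They were chosen by their exon reads and RPKM in these same 3 libraries, so all differences below are descriptions and none is tested. TFR cells, the regulatory T cells of the B-cell follicle, were taken from spleen and mLN through a gate on CD4+, B220-, GFP+, CXCR5+ and GITRhi, 10 days after mice had received 125 µg NP-KLH in alum with a boost on day 7. The GFP reports *Prdm1*, the gene of Blimp-1, and each of the 3 genotypes has 1 library.

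The library labelled NFATc1-deficient (N) comes from Nfatc1fl/fl.Prdm1gfp/+.FIC mice, and the library labelled NFATc1/αA-overexpressing (αA) from Nfatc1caaA.Prdm1gfp/+.FIC mice, whose Tregs express a constitutively active NFATc1/αA. The third (PαA), from Nfatc1caaA.Prdm1gfp/fl.FIC mice, carries in addition a floxed *Prdm1* allele and is labelled Blimp-1-deficient. All 3 genotypes share the Foxp3-IRES-Cre allele (FIC), so that recombination is driven by the *Foxp3* locus, and at least 1 *Prdm1* gfp allele. Wild-type TFR cells were not analysed here, and neither the age of the mice nor the number behind each library is given in the sources used here. RPKM were scaled to library totals of 29726219 (N), 27239921 (αA) and 25465829 (PαA) reads. Where 3 values stand together, they are those of N, αA and PαA in this order. Intervals are exact 95% intervals for counting error only (Clopper-Pearson for ratios and shares, Poisson for levels), because PCR copies cannot be told from molecules and because no spread between mice can be given with 1 library per genotype.

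Tissue Tregs are effector Tregs that settle in fat, skin, lung and gut. They read the alarmin IL-33 through its receptor ST2, the product of *Il1rl1*, and release amphiregulin (*Areg*), an EGF receptor ligand of tissue repair. KLRG1 is an inhibitory lectin receptor of terminally differentiated T cells that binds cadherins. PPARγ (*Pparg*) is the nuclear receptor of Tregs in visceral fat, and NFIL3 (*Nfil3*) a basic leucine zipper repressor found in the precursors of tissue Tregs in lymphoid organs.

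Before the genes are described, 2 features of the libraries have to be stated. *Nfatc1* had an RPKM of 63.6 in N, 62.9 in αA and 32.4 in PαA, so that N, although labelled NFATc1-deficient, had as much of it as αA. A gene total cannot show whether floxed sequence is absent, and N, αA and PαA are therefore used as labels throughout. *Prdm1* had 25.6 and 24.9 in N and αA and 10.0 in PαA, 0.40 times its αA level. The median gene compared had a log2 ratio of -0.14 for αA against N, -0.05 for PαA against αA and -0.19 for PαA against N, whereas with edgeR's TMM factors it lay at 0.02, 0.02 and 0.04. Among genes past 2-fold, 31.8%, 50% and 24.9% were higher in these comparisons by RPKM, and 53.0%, 58.9% and 51.0% with the TMM factors. For the 5 genes, ratios with the TMM factors are given where they change the picture.

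The sorted cells carried the markers of TFR cells, but some of these were part of the gate. CD4, CXCR5, GITR (*Tnfrsf18*) and *Prdm1*-GFP were sorted on, so detection of their genes is no check of identity. *Cd3d*, *Cd3e*, *Cd3g* and *Cd4*, *Foxp3* and *Ikzf2* of Tregs, and *Cxcr5*, *Icos*, *Pdcd1* and *Bcl6* of follicular T cells were all detected. Of 14 such identity genes, 0 passed 2-fold when αA was set against N, where 4.02% of all genes compared did. Between PαA and αA, 2 were lower in PαA, *Ctla4* and *Prdm1*, where 2.14% of all genes were. Between PαA and N 5 were lower (2 with the TMM factors), where 7.8% of all genes were by RPKM. The differences from these shares were not tested. The RPKM of *Foxp3* was 32.7, 20.9 and 15.3. The label of tissue Tregs thus applies to the genes and not to the sort, which drew on lymphoid organs.

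*Klrg1* (ENSMUSG00000030114, chromosome 6 from 122270596 to 122282882 on the minus strand, GRCm38) was the most variable of the 5 genes. Its exon reads were 7250 for N, 450 for αA and 968 for PαA, and its RPKM was 172 (95% interval 169 to 177), 11.7 (10.6 to 12.8) and 26.9 (25.2 to 28.6). N stood far above the other libraries, αA was lowest, and no intervals overlapped. By RPKM it ranked 353rd of the 14025 genes with reads in N, and 3918th of 14978 in αA. *Klrg1* was thus 14.8-fold lower in αA than in N, 2.30-fold higher in PαA than in αA, and still 6.42-fold lower in PαA than in N. Its log2 ratio of -3.88 between αA and N was the 15th lowest of 6887 genes with an RPKM above 5 in either library.

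*Il1rl1* (ENSMUSG00000026069, chromosome 1 from 40429570 to 40465415, plus strand) showed the same order of libraries at a lower level. With 3248, 600 and 1480 exon reads, its RPKM was 15.8 (15.3 to 16.4), 3.20 (2.94 to 3.46) and 8.43 (8.01 to 8.87). Again N was highest and αA lowest, without overlap. For αA against N the log2 ratio was -2.31 (-2.44 to -2.18), and for PαA against αA it was 1.40 (1.26 to 1.54). PαA lay nearer to N than for *Klrg1*, with a log2 ratio of -0.91 (-1.0004 to -0.82), and of -0.68 with the TMM factors. The αA library enters the ratio to N and the ratio of PαA to it, so that both share its reads.

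*Areg* (ENSMUSG00000029378, chromosome 5 from 91139599 to 91148432, plus strand) was also highest in N, but lowest in PαA. With 288, 76 and 34 reads, its RPKM was 7.97 (7.08 to 8.95), 2.30 (1.81 to 2.87) and 1.10 (0.76 to 1.54). The 3 intervals do not overlap, although only N was above an RPKM of 5. The log2 ratio was -1.80 (-2.18 to -1.43) between αA and N, -1.06 (-1.69 to -0.46) between PαA and αA and -2.86 (-3.42 to -2.34) between PαA and N. Where *Klrg1* and *Il1rl1* were higher again in PαA, the *Areg* level was not.

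*Pparg* (ENSMUSG00000000440, chromosome 6 from 115360951 to 115490399, plus strand) had the opposite order. With 195, 280 and 462 reads, its RPKM was 2.56 (2.22 to 2.95), 4.02 (3.56 to 4.51) and 7.09 (6.46 to 7.76). N was lowest and PαA highest, again without overlap, and only PαA was above an RPKM of 5. The log2 ratio was 0.65 (0.38 to 0.92) between αA and N, 0.82 (0.60 to 1.04) between PαA and αA and 1.47 (1.22 to 1.72) between PαA and N, where it was 2.77-fold higher.

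*Nfil3* (ENSMUSG00000056749, chromosome 13 from 52967209 to 52981073, minus strand) was the steadiest. It had 1718, 1641 and 933 reads, an RPKM of 28.5 (27.2 to 29.9) in N, 29.7 (28.3 to 31.2) in αA and 18.1 (16.9 to 19.3) in PαA. The intervals of N and αA overlap, and PαA lies below both. Between αA and N the log2 ratio of 0.06 (-0.04 to 0.16) was within counting error by RPKM, but 0.22 with the TMM factors. Between PαA and αA it was -0.72 (-0.83 to -0.60), short of 2-fold. In αA, *Nfil3* was the most abundant of the 5 genes per kilobase, whereas in N and PαA *Klrg1* was.

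**Figure D1:**
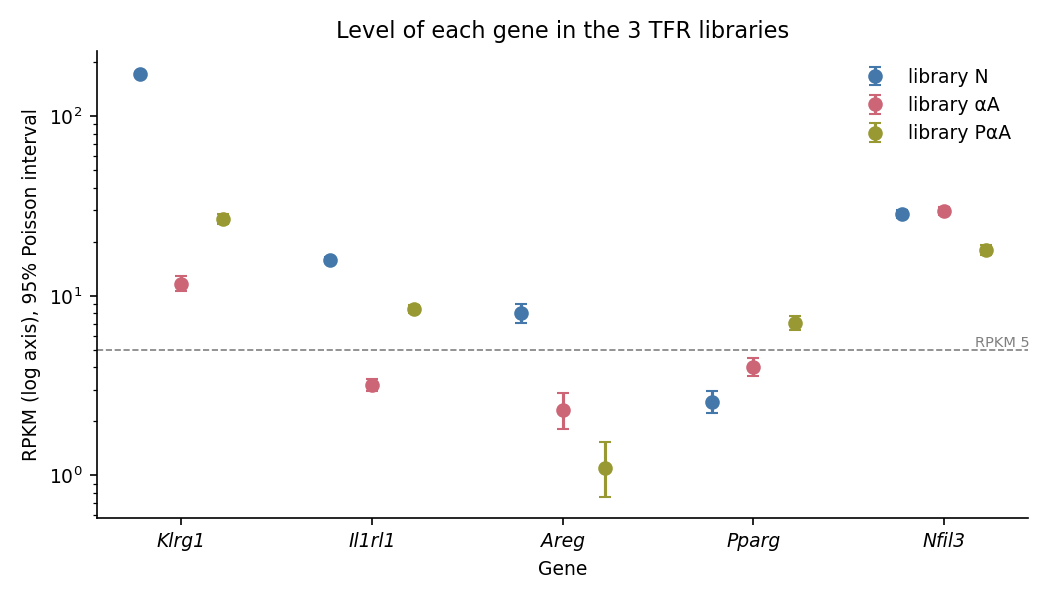
RPKM (log axis) of the 5 genes in the libraries N, αA and PαA; points are single libraries, bars are 95% Poisson intervals for counting error only, and the dashed line marks an RPKM of 5. *Klrg1* spans 172 to 11.7 and *Il1rl1* 15.8 to 3.20 with αA lowest, *Areg* is lowest and *Pparg* highest in PαA, and *Nfil3* is at 28.5 and 29.7 in N and αA.

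Taking an RPKM above 5 in either library and a ratio above 2, 3 of the 5 genes were lower in αA than in N (*Klrg1*, *Il1rl1* and *Areg*) and 0 higher, where of the 6887 genes compared 4.02% passed, 2.74% lower and 1.28% higher. Between PαA and αA, 2 were higher (*Klrg1* and *Il1rl1*) and 0 lower, where 4.29% of 6530 genes passed, 2.14% in each direction. Between PαA and N, 2 were lower (*Klrg1* and *Areg*) and 1 was higher (*Pparg*), where 10.4% of 6940 genes passed, 7.8% lower and 2.58% higher. Since the genes were chosen with these ratios known, nothing is read from the difference between their counts and these shares. A bulk library cannot tell fewer *Klrg1*+ or ST2+ cells from less RNA per cell.

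**Figure D2:**
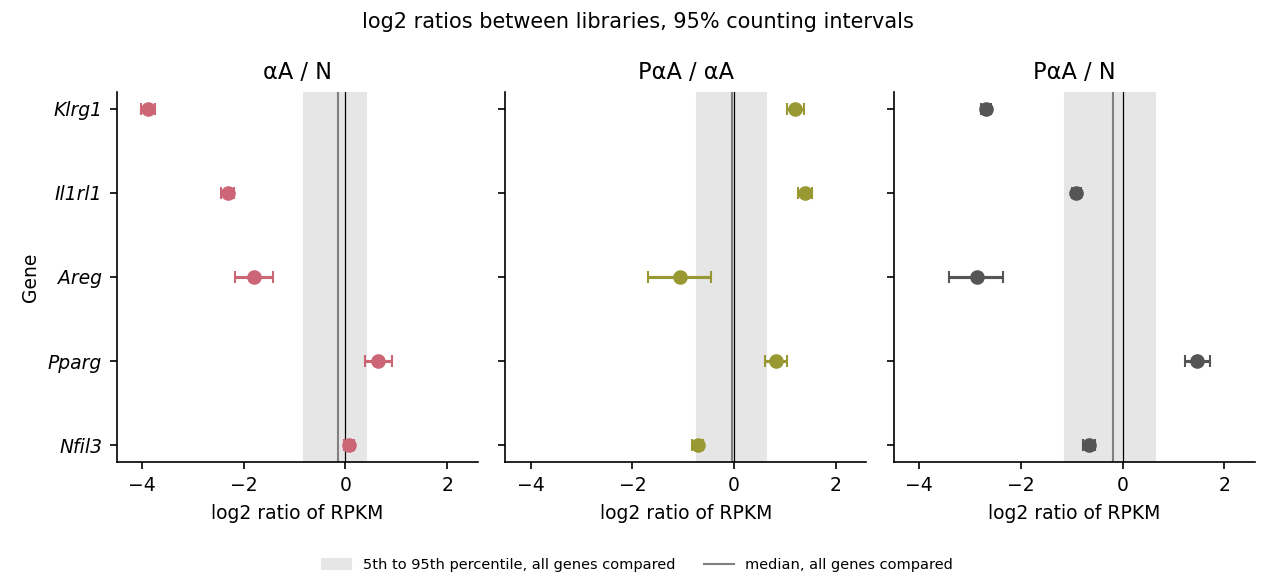
log2 ratio of RPKM for αA / N, PαA / αA and PαA / N with 95% Clopper-Pearson counting intervals; the grey band spans the 5th to the 95th percentile of all genes compared, the grey line is their median and the black line marks no difference. *Klrg1*, *Il1rl1* and *Areg* lie left of the band for αA / N (-3.88, -2.31 and -1.80), and *Klrg1* and *Il1rl1* right of it for PαA / αA (1.20 and 1.40), while *Pparg* lies right of the band in all 3 panels (0.65, 0.82 and 1.47) and *Areg* left of it in all 3 (-1.80, -1.06 and -2.86).

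The reads on these genes were all uniquely placed, and none of the 5 genes overlaps another gene of the tables. Reads across exon-exon junctions and in introns were looked at as a further readout of the same libraries. Of the exon reads of *Il1rl1*, 11.3% (10.2% to 12.4%) crossed a junction in N, against 6.17% (4.38% to 8.40%) in αA and 7.50% (6.21% to 8.96%) in PαA. The share was thus highest in N beyond counting error, and the software listed 3 of the 5 annotated transcripts as detected in N and 2 in αA and PαA. *Il1rl1* is known to encode the membrane receptor and a shorter soluble form that traps IL-33, and the gene totals do not separate these. For *Klrg1* the junction share was 19.4% (18.5% to 20.3%) in N, 24.2% (20.3% to 28.5%) in αA and 23.3% (20.7% to 26.1%) in PαA, so that the low libraries held spliced *Klrg1* RNA as well. The junction share of *Nfil3* was 2.56% (1.87% to 3.42%) in N, 2.01% (1.39% to 2.81%) in αA and 0.86% (0.37% to 1.68%) in PαA. It was thus lower in PαA than in N beyond counting error.

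Intron shares differed between libraries for *Pparg*, *Areg* and *Il1rl1*. For *Pparg*, 116 of 396 gene reads (29.3%, 24.9% to 34.0%) lay in introns in αA, against 9.72% (6.12% to 14.5%) in N and 10.1% (7.65% to 13.1%) in PαA. For *Areg* it was PαA that differed, with 25 of 59 reads (42.4%, 29.6% to 55.9%) against 3.36% (1.62% to 6.08%) in N. The share of *Il1rl1* was small throughout, but with 2.91% (1.74% to 4.56%) higher in αA than in N, where it was 0.34% (0.17% to 0.60%). Over all genes, 3.62%, 5.30% and 3.91% of gene reads were intronic in N, αA and PαA, and whether unspliced RNA or DNA adds to these counts was not tested. The exon reads used for RPKM leave intron reads out.

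**Figure D3:**
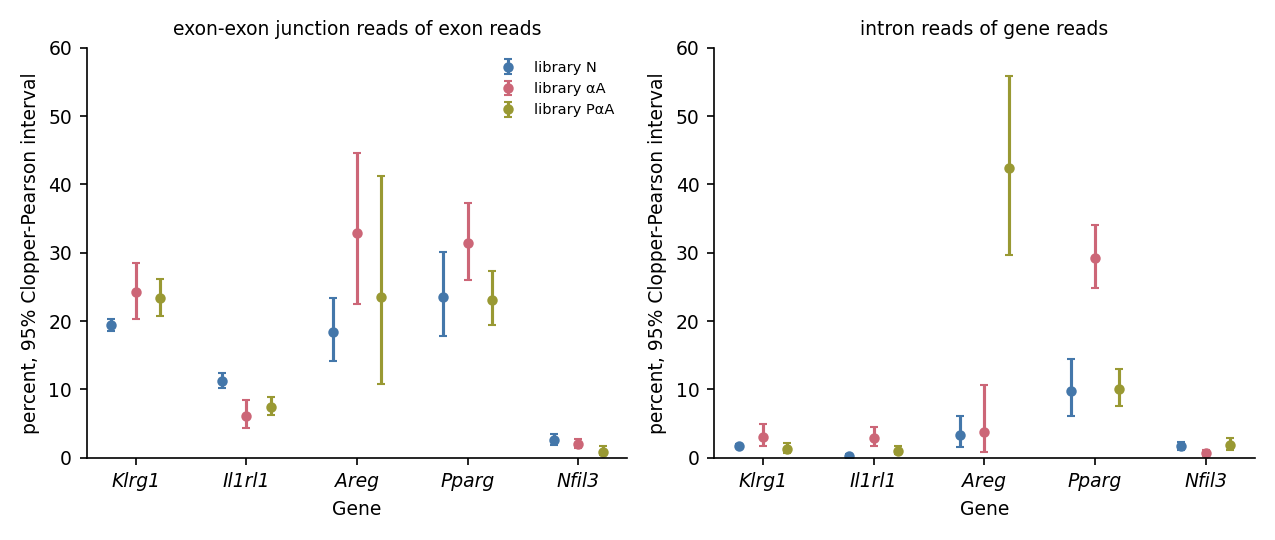
Percent of exon reads that cross an exon-exon junction (left) and percent of gene reads that lie in introns (right) for the 5 genes in N, αA and PαA, with 95% Clopper-Pearson intervals. The intron share stands out for *Areg* in PαA (42.4%) and *Pparg* in αA (29.3%), and the junction share of *Il1rl1* is higher in N (11.3%) than in αA (6.17%).

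*Il1rl1* lies in the IL-1 receptor cluster, 136 bases upstream of *Il18r1*, with *Il18rap* next in line, and these encode the chains of the IL-18 receptor. *Il18r1* had an RPKM of 23.9 in N, 14.4 in αA and 38.0 in PαA, and *Il18rap* 7.99, 5.11 and 11.8. Both were lowest in αA, as *Il1rl1* was, but highest in PαA. Between PαA and αA the log2 ratios of *Il1rl1*, *Il18r1* and *Il18rap* were 1.40, 1.40 (1.32 to 1.47) and 1.21 (1.07 to 1.34). With αA against N, these were -0.73 (-0.81 to -0.65) for *Il18r1* and -0.64 (-0.78 to -0.51) for *Il18rap*, less than 2-fold and less than *Il1rl1*. *Il1rl2*, upstream of *Il1rl1* and encoding the IL-36 receptor, had only 131 reads in N and 60 in αA, and was not higher in PαA, with an RPKM of 0.52 and 0.40 in αA and PαA.

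**Figure D4:**
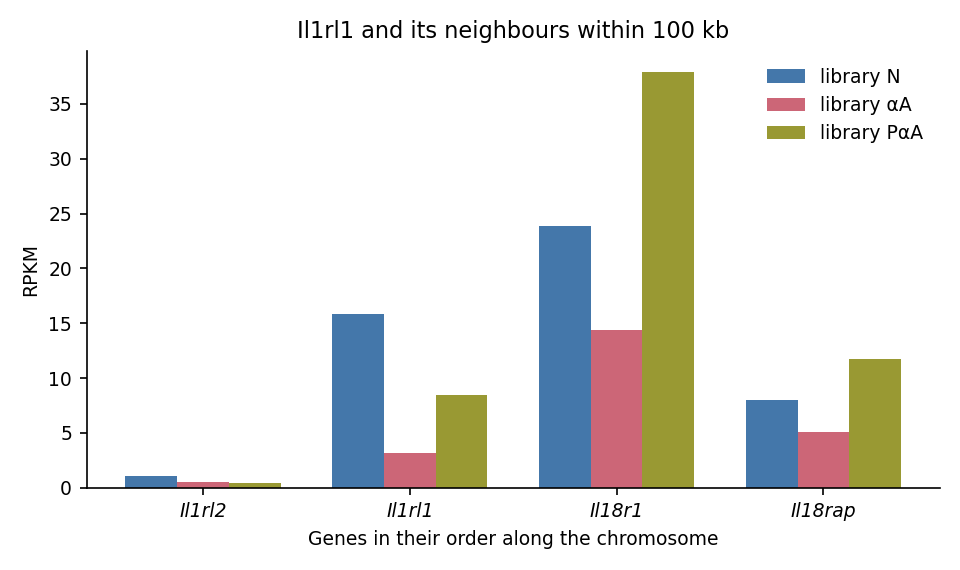
RPKM of *Il1rl1* and the genes within 100 kb of it, in their order along the chromosome, in N, αA and PαA (bars are single libraries, with no spread between mice). *Il1rl1*, *Il18r1* and *Il18rap* are each lowest in αA, at 3.20, 14.4 and 5.11.

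Values of other genes next to these loci follow. Beside *Klrg1*, *M6pr*, which encodes a mannose 6-phosphate receptor, had RPKM values of 170, 148 and 138, and *Phc1*, a Polycomb gene, 4.46, 3.21 and 2.29. *Auh*, next to *Nfil3*, had 2.61, 2.22 and 2.17. *Ereg* beside *Areg*, also an EGF receptor ligand, had at most 5 reads in a library, and *Syn2*, near *Pparg*, at most 7.

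The promoters of 4 of the 5 genes were matched by symbol in RefSeq sequence (GRCm38.p6). They were searched on both strands for TTTCC, the core of NFAT sites, CTTTC, the core of Blimp-1 sites, TGANTCA (AP-1), TGACGTCA (CRE) and TTANNTAA, the D-box bound by NFIL3. TTTCC and CTTTC share 4 letters, so that CTTTCC counts for both. In the 250 bases before a start site, 55.6% of 32817 mouse promoters hold TTTCC, 51.5% CTTTC, 6.75% TGANTCA, 1.55% TGACGTCA and 5.43% TTANNTAA. Shown are the first start site of *Il1rl1* (chr1:40429320-40429569), that of *Areg* (chr5:91139349-91139598) and the last of the 3 of *Pparg* (chr6:115421816-115422065), all on the plus strand, because these genes had 3 different orders of libraries and because the stretches overlap no annotated exon. Capitals mark the matches.
Il1rl1: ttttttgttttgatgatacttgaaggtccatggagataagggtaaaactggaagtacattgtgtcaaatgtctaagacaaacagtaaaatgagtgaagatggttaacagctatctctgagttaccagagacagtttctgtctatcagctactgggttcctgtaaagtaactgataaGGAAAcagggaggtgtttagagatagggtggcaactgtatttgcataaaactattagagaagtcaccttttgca
Areg: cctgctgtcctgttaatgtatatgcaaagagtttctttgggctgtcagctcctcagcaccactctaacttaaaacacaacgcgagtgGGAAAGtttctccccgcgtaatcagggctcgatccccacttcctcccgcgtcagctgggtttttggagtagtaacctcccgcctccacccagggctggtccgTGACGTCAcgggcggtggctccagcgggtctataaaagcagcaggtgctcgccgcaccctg
Pparg: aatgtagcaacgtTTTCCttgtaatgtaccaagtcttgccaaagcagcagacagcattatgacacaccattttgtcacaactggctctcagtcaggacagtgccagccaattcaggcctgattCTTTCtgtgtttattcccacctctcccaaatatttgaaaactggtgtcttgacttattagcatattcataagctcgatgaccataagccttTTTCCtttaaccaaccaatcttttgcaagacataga
*Il1rl1* held 1 NFAT core, 74 bases before the start. In *Areg* a joined NFAT and Blimp-1 core starts 163 bases before it and a CRE 61 bases before it, whereas *Pparg* held NFAT cores at 237 and 36 and a Blimp-1 core at 127 bases. A match is a stretch of letters, not a bound site.

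The wider programme of tissue Tregs was followed in a list of 25 other genes. Of all genes compared, 4.02% (αA against N), 4.29% (PαA against αA) and 10.4% (PαA against N) passed 2-fold, and differences from these shares were not tested. Between αA and N, 22 had an RPKM above 5 in either library, of which 3 were more than 2-fold lower, 1 was higher and 18 did not pass. Their median log2 ratio was -0.22, beside -0.14 for all genes compared, and -0.06 with the TMM factors. *Penk*, which encodes the opioid precursor proenkephalin, had RPKM values of 332 (N) and 40.6 (αA), with the log2 ratio at -3.03 (-3.10 to -2.96). *Itgae*, the αE integrin CD103 that binds E-cadherin, was at 63.3 and 16.8, with the ratio at -1.91 (-1.98 to -1.85), and *Il9r* at 6.08 and 1.94, with the ratio at -1.65 (-1.86 to -1.44). *Il10* was the exception, with 22.1 in N and 69.4 in αA. The triglyceride enzyme gene *Dgat2* and the prostaglandin D synthase gene *Hpgds* stayed under an RPKM of 5 and had log2 ratios of -2.60 (-3.05 to -2.17) and -2.07 (-2.60 to -1.57).

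The list also holds transcription factors of effector and tissue Tregs. *Batf* had RPKM values of 141, 131 and 135. *Gata3*, which acts on *Il1rl1* in type 2 cells, had 53.6, 28.7 and 32.3, so that the log2 ratio of αA to N was -0.90 (-0.97 to -0.84). *Rora* had 7.91, 5.91 and 8.45 and *Irf4* 20.5, 17.9 and 12.3, each within 2-fold in every comparison. *Maf* had 105, 84.5 and 43.3 and was 2.43-fold lower in PαA than in N.

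Between PαA and αA, 7 of the 22 tissue Treg genes passed 2-fold, 3 of them higher in PαA (*Il9r*, *Il18r1* and *S100a4*) and 4 lower (*Ccr8*, *Il10*, *Gpr55* and *Tnfrsf9*). The median log2 ratio was -0.29, beside -0.05 for all genes, but it turned to 0.051 with no filter on low values. *Il9r* went from 1.94 (αA) to 5.28 (PαA), a ratio of 1.44 (1.23 to 1.66) in log2, and so was lowest in αA like *Klrg1* and *Il1rl1*. *Itgae* was lowest in αA too, but PαA, with 19.3, was only slightly above it, at a log2 ratio of 0.20 (0.12 to 0.29). *Penk* was lowest in PαA, with 31.3. The chemokine receptor gene *Ccr8* had 71.7 and 28.9, with the log2 ratio at -1.31 (-1.42 to -1.19). Of the reads of *S100a4*, *Gpr55* and *Tnfrsf9* under 50% were unique (36.5%, 32.9% and 24.6%), and without such genes, a choice made after the values were seen, 4 genes passed.

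Between PαA and N, 8 of the list passed, 6 lower in PαA (*Maf*, *Ccr8*, *Itgae*, *Gpr55*, *Penk* and *Tnfrsf9*) and 2 higher (*Lgals1* and *S100a4*), with a median of -0.72 beside -0.19 for all genes. Without the genes under 50% unique reads, 5 passed.

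**Figure D5:**
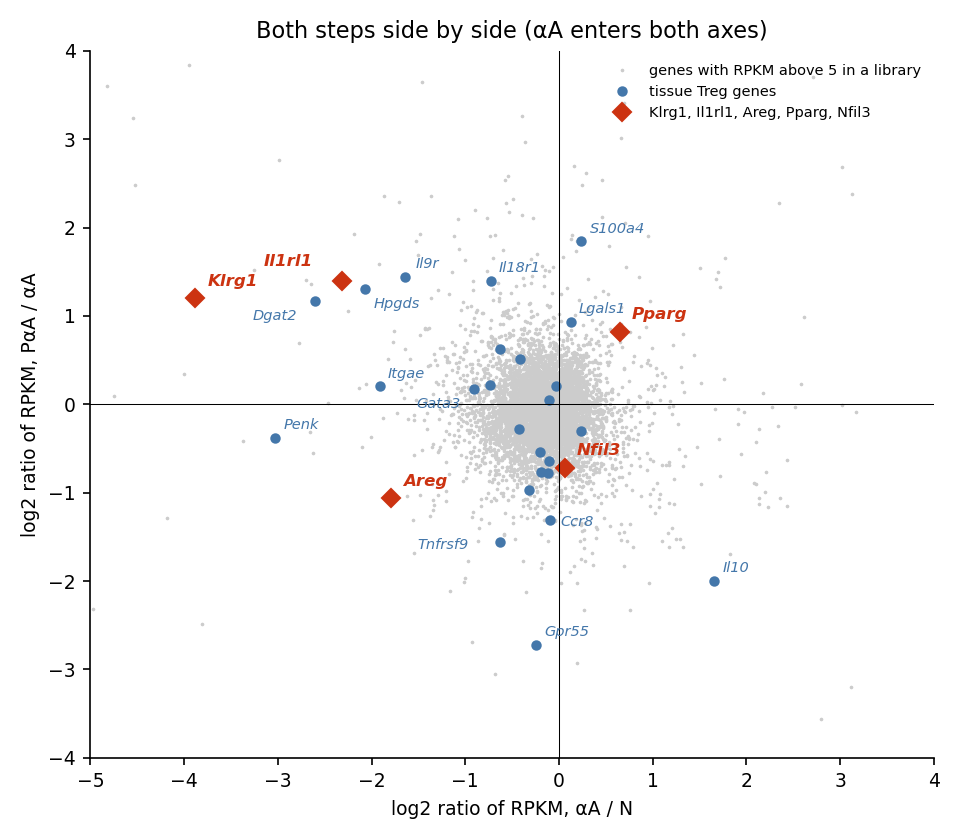
log2 ratio of RPKM for αA / N (horizontal) and PαA / αA (vertical) of the 5 genes (red diamonds), the 25 other tissue Treg genes (blue) and genes with an RPKM above 5 in a library (grey, those beyond the axes not drawn). The αA library enters both axes, so its reads move a point along the falling diagonal; *Klrg1* (-3.88, 1.20) and *Il1rl1* (-2.31, 1.40) lie at the upper left, *Areg* (-1.80, -1.06) at the lower left and *Pparg* (0.65, 0.82) at the upper right.

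Partners of the 5 genes were followed in lists of their own. Of all genes compared, 4.02% (αA against N), 4.29% (PαA against αA) and 10.4% (PαA against N) passed 2-fold. The counts in the lists are descriptions, and their difference from these shares was not tested. ST2 signals with the accessory chain encoded by *Il1rap* through MyD88, IRAK kinases and TRAF6 to NF-κB. Of 17 genes of this pathway, 13 had an RPKM above 5, and 0 of these passed 2-fold between αA and N or PαA and αA. Between PαA and N *Irak4* was lower, with 4.36 against 9.42, though short of 2-fold with the TMM factors. *Il1rap* itself was low, with 1.96, 1.65 and 1.43, and *Il33*, the ligand, had at most 11 reads. *Nfkbia*, a target of NF-κB that encodes its inhibitor, was the most abundant, with 233, 219 and 175.

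KLRG1 recruits the phosphatases SHIP-1 and SHP-2. Their genes *Inpp5d* and *Ptpn11* had RPKM values of 41.3, 34.1 and 30.4 and of 29.4, 21.8 and 17.7, and these 2 of the 5 genes of this list, the ones above an RPKM of 5, stayed within 2-fold in every comparison. The cadherin ligand genes *Cdh1*, *Cdh2* and *Cdh4* had at most 37, 24 and 4 reads in a library and were not compared. *Cdh1* had 19, 27 and 37 reads and *Cdh2* 24, 8 and 0.

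Among 11 EGF receptor ligand and receptor genes only *Adam17*, whose protease sheds amphiregulin from the cell surface, was above an RPKM of 5. It had 20.7, 13.1 and 10.2, 2.03-fold lower in PαA than in N and short of 2-fold with the TMM factors. *Areg* was the most abundant EGF receptor ligand gene in each library. *Hbegf* followed with 43, 12 and 23 reads, and *Egfr* had at most 8.

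Of 21 partners and targets of PPARγ, 7 were above an RPKM of 5, and 0 of these passed 2-fold between αA and N or PαA and αA. The partner genes *Rxra* and *Rxrb* had an RPKM of 11.3, 8.23 and 6.19 and of 19.0, 19.9 and 18.1. The target *Plin2* had 21.2, 20.7 and 23.9, and *Cpt1a* 25.6, 15.0 and 13.5. *Cd36* had 0.993, 0.644 and 0.995 and *Fabp4* 10, 6 and 23 reads. For none of these 4 targets did these values climb from N over αA to PαA as for *Pparg*. With the TMM factors *Plin2* did climb, with log2 ratios of 0.12 for αA against N and 0.27 for PαA against αA.

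NFIL3 represses from the D-box, where DBP, TEF and HLF activate, and it is tied to the circadian clock. Of 16 such genes, *Hlf* was lower in αA than in N, with RPKM values of 2.09 and 5.13. Its log2 ratio was -1.30 (-1.48 to -1.11), and it was at 5.10 in PαA. *Nr1d1*, which encodes the clock repressor REV-ERBα that acts on *Nfil3*, had 1.67, 2.04 and 12.5, so that PαA stood above αA with a log2 ratio of 2.62 (2.37 to 2.88). *Hlf* and *Nr1d1* were the 2 genes of the list that passed in that comparison, both higher in PαA. *Bhlhe40* was the most abundant, with 41.2, 36.0 and 38.6.

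Genes with the most similar pattern were sought among 6989 genes by the distance between their pairs of log2 ratios, αA against N and PαA against αA, over the 3 libraries. Nearest to *Klrg1* were *Sparc* (distance 0.71), *Gzma* (0.86), *Actg2* (1.21), *Sytl2* (1.22) and *Atp6v0d2* (1.25). *Gzma*, which encodes granzyme A, had RPKM values of 61.8, 3.87 and 4.92, and *Sparc*, a matrix protein gene, 6.42, 0.67 and 1.93. Nearest to *Il1rl1* were *Atp6v0d2* (0.34), *Lilr4b* (0.35, with 31.8% unique reads) and *Actg2* (0.38). *Areg* was nearest to *Il17a* (0.18), *Ccr9* (0.31) and *Lztfl1* (0.34, with 15.0% unique reads), *Pparg* to *Ccl4* (0.11), *Cd9* (0.11) and *Il18* (0.12), and *Nfil3* to *Trim59* (0.02), *Tbc1d30* (0.02) and *Endod1* (0.03). The nearest gene to *Klrg1* was farther away than the nearest gene to *Nfil3*. Few genes have ratios as extreme as those of *Klrg1*, so this distance follows from its position and says nothing further about its pattern.

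These genes are also used by other cells, and markers of such cells were read in the same libraries. The gate was on CD4, CXCR5, GITR and *Prdm1*-GFP and against B220, and the purity of the sorted cells is not given in the sources used here. Group 2 innate lymphoid cells carry all 5 genes and lack CD4. Their 6 markers had a summed RPKM of 18.9 in N, 4.36 in αA and 13.7 in PαA, the same order as *Klrg1* and *Il1rl1*. The most abundant was *Il13*, a cytokine that T cells make too, with 5.89, 2.32 and 1.69. *Nmur1* had 157, 28 and 86 reads, *Il5* 52, 3 and 60, *Calca* 257, 13 and 5, and *Il17rb*, with 27.8% unique reads, 212, 80 and 222. For comparison, *Klrg1* had an RPKM of 172, 11.7 and 26.9, and *Il1rl1* 15.8, 3.20 and 8.43. *Klrg1* and *Nfil3* were above the marker sum in each library, whereas *Il1rl1*, *Areg* and *Pparg* were below it. The part of such cells in the levels of the 5 genes was not tested.

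NK and CD8 T cells express *Klrg1* as well. Their 9 markers summed to 32.9, 60.1 and 73.6 in N, αA and PαA, lowest in N where *Klrg1* was highest, with *Xcl1* the most abundant at 14.2, 27.7 and 37.7 and *Ncr1*, a defining NK receptor, at 12, 15 and 10 reads. Not all of them had this order: *Eomes* had 410, 103 and 320 reads, lowest in αA like *Klrg1*, and *Klre1* 34, 23 and 8. Mast cells and basophils use ST2, and of their 10 markers *Mcpt8*, *Fcer1a*, *Gata2*, *Prss34* and *Mcpt4* were at 0 reads in all 3 libraries and the others had at most 14. *Cma1*, the most abundant of them by RPKM summed over the 3 libraries, had 7, 0 and 0 reads. The summed RPKM of the 10 markers was at or under 0.45 in each library.

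Myeloid and stromal markers also differed between libraries. Of 12 myeloid markers 11 were matched, and they summed to 275, 173 and 239, mostly *Lyz2* with 214, 134 and 184. *S100a9* had 235, 0 and 153 reads, and the myeloid sum has the order of *Klrg1* and *Il1rl1*. The macrophage markers of the list were instead highest in αA, with *Adgre1* at 2.30, 5.32 and 4.93, *Csf1r* at 6.25, 10.6 and 6.62, *Mrc1* at 1.11, 2.45 and 1.33 and *Cd68* at 16.4, 19.5 and 18.0. The 5 stromal markers summed to 38.2, 23.9 and 17.8, with *Pecam1* the most abundant over the 3 libraries and the collagen genes *Col1a1* and *Col1a2* at 907, 36 and 188 and at 842, 33 and 292 reads. The collagen genes and *Sparc* thus were highest in N and lowest in αA too, at an RPKM of at most 6.42. The other stromal markers did not all share this order: *Epcam* had an RPKM of 14.5, 13.4 and 4.58, lowest in PαA, and *Adipoq* 2, 22 and 0 reads. The 6 B and plasma cell markers, led by *Jchain*, summed to 60.2, 71.2 and 109, highest in PαA, whereas *Cd79b* had 11.5, 8.85 and 8.67. Whether contaminating cells take part in the differences of the 5 genes was not tested.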

How the data were processed

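Poly(A) RNA of sorted TFR cells was sequenced as single reads. Per the paper's methods, the authors trimmed adapters, aligned reads to GRCm38 and counted them per gene in CLC Genomics Workbench with default settings. The annotation release is not given in the sources used here. The kit is not named as directional, so reads carry no strand. The authors deposited whole-number counts of exon, junction, intron and gene reads, which are not normalized, and RPKM and TPM; the column called expression value equals the total exon reads. Of 25759 genes, 3715 have an exon length of 0 and drop out.

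The library totals follow from the RPKM formula. Ratios are of RPKM. A gene was compared with an RPKM above 5 in either library and counted past 2-fold. With 1 library per genotype no test across samples exists and no p-value is given. The floor for detection was 3 reads. Alternatives were TPM, TMM factors (edgeR 4.0.16, R 4.3.3), median-of-ratios size factors, unique reads, pseudocounts and other thresholds. Calls and intervals were tested on simulated data. Python 3.11.15, pandas 2.3.3, numpy 2.4.6, scipy 1.17.1 and matplotlib 3.10.9 were used.

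The 5 genes and all gene lists (tissue Treg, ST2, KLRG1, EGF receptor, PPARγ, D-box and clock, central Treg, terminal effector, TFR identity, other cells) were chosen with earlier results of these data known. Named are the 5 genes, the targeted genes, identity and other-cell markers, list genes that pass 2-fold or are the most abundant of their list, neighbours within 100 kb and the genes nearest in pattern (RPKM above 5 and 100 reads in a library, 3 reads in each). Other list genes (*Batf*, *Gata3*, *Rora*, *Irf4*, *Dgat2*, *Hpgds*, *Il1rap*, *Il33*, *Hbegf*, *Egfr*, *Cd36*, *Fabp4*, *Plin2*, *Cpt1a*, *Rxra*, *Rxrb*, *Inpp5d*, *Ptpn11* and the cadherins) were named for their roles after their values were seen. Results for some list genes and neighbours are not reported here.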

Additional observations from a re-analysis of the deposited data

How the results depend on the processing

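Over 90 combinations of a ratio of the 5 genes and an alternative, 0 changed sign and 22 left the counting interval. Many of these could not change sign. A pseudocount added to both libraries keeps their order, and unique reads repeat the main values because all reads of these genes were unique. Only TPM, the TMM factors and the median-of-ratios size factors could have changed a sign. *Klrg1* between αA and N had a log2 ratio of -3.72 with the TMM factors and -3.71 with median-of-ratios size factors, between PαA and αA 1.04 with TPM, and between PαA and N -2.88, -2.45 and -2.44 with TPM, TMM and median-of-ratios. Each scaling moves all genes of a library alike, which is the cause of these shifts. The ratio of *Il1rl1* between PαA and N passed 2-fold with TPM only (-1.11), and that of *Areg* went from -2.86 to -2.10 with a pseudocount of 1. The number of the 5 genes past 2-fold was 1 between PαA and αA and 1 between PαA and N at an RPKM above 10, 4 and 5 at 1.5-fold, and 0 between PαA and αA at 3-fold. For the 25 tissue Treg genes it was 8, 12 and 15 at 1.5-fold in the 3 comparisons (αA against N, PαA against αA, PαA against N), 3 and 5 at 3-fold in the last 2, and 4 and 5 there without genes under 50% unique reads, an alternative chosen after seeing the data. Their median between PαA and αA was 0.051 with no filter on low values in place of -0.29, with 25 genes in place of 22. No paired analysis was possible because each genotype has 1 library. Depth limits *Areg* most, with 34 reads in PαA, and no spread between mice is known.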

Other observations

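Genes of terminal effector T cells, which share *Klrg1* as a marker, were mixed. Of 14 genes, 11 had an RPKM above 5 in αA or N, with *Gzma* and *Gzmk* lower and *Nkg7* higher in αA by more than 2-fold, and a median log2 ratio of -0.28 beside -0.14 for all genes compared. *Gzmk*, which encodes granzyme K, had an RPKM of 79.4 in N, 9.99 in αA and 67.8 in PαA, so that it was lowest in αA like *Klrg1*, with a log2 ratio of only -0.23 (-0.30 to -0.15) between PαA and N. *Gzma* had only 4.92 in PαA. *Ccl5*, the most abundant of the list, had 816, 432 and 1134. Between PαA and αA, *Cx3cr1*, *Gzmk* and *Ccl5* were higher and 0 genes lower, with a median of 0.45.

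Genes of central Tregs, which tissue Tregs are known to lose, did not simply mirror *Klrg1*. Of 12 genes, 11 were compared between αA and N, with *Ccr7* higher and *Lef1*, *Satb1* and *Bcl2* lower in αA (1 higher and 1 lower with the TMM factors) and a median log2 ratio of 0.04. Between PαA and αA, *Klf2*, *S1pr1*, *Il7r* and *Id3* were higher and 0 lower, with a median of 0.56 beside -0.05 for all genes compared. *Klf2* had RPKM values of 54.3, 56 and 178, *Il7r* 82.9, 64.2 and 164, and *Tcf7*, the most abundant, 150, 203 and 244. The PαA library thus held more RNA of *Il7r* and *Klf2* and of *Klrg1* than αA at the same time. With 1 library per genotype these are descriptions of the libraries, and what cells carry these genes together was not tested.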
